A study of Mus musculus with 6 samples.

Results

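The semaphorins, ephrins, netrins and slits are families of guidance signals, and with their receptors they form the group of genes described here. Members were the gene symbols of the deposited table that begin with Sema, Plxn, Eph, Efn, Ntn, Unc5, Robo or Slit in the forms that name these families, or that are Nrp1 or Nrp2. The rule found 61 of the 13912 genes in the table, and it used no measured value. The 61 comprised 33 ligands, 26 receptors and 2 genes matched by their letters only, Unc50, which encodes a protein of the Golgi apparatus, and the antisense transcript Plxna4os1. The annotation holds 70 protein-coding genes of such names, and 10 of them were not among the genes tested (Epha5, Epha6, Epha7, Epha10, Ephb1, Ntn5, Robo3, Sema5b, Unc5cl and Unc5d).

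RNA was sequenced from 4T1-Luc2-RFP cells, a mammary carcinoma line from the BALB/c mouse strain that carries luciferase and a red fluorescent protein. A group of 3 libraries came from the line kept in culture and not injected. The other group of 3 came from cells recovered by fluorescence-activated sorting from MIND tumours of mammary glands, a model in which the cells are placed into a milk duct. Both groups share the line and its reporters, the age of the mice is not given, only the tumour group is labelled as sorted, and separate animals or cultures are not stated, so p-values rest on the spread from library to library alone, and that spread may be technical.

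Guidance signals steer growing axons and also shape vessels, epithelia and immune cell movement. Semaphorins signal through plexins, and the secreted class 3 semaphorins mostly need a neuropilin as co-receptor. Ephrins sit on the cell surface and bind Eph receptor tyrosine kinases on a neighbouring cell, so that both cells can receive a signal. Netrins bind the DCC and UNC5 receptors, and slits bind ROBO receptors. In the mammary gland netrin 1 with neogenin and SLIT2 with ROBO1 take part in shaping the ducts, and EphA2 is known for high levels in breast carcinomas.

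The 6 libraries held 35448588 to 41469090 reads in the genes of the table. Levels are given as CPM, the reads of a gene per 1000000 of the scaled library total, and each change is a difference of group means in log2 CPM (tumours less culture), tested by limma with Benjamini-Hochberg adjustment over all 13912 genes. Markers of the epithelial line were present in both groups, with summed levels of 3812 to 4455 CPM in culture and 3293 to 3831 in the tumour libraries for 24 of 25 listed genes tested. Of these 24, 3 (12.5%) were called higher and 11 (45.8%) lower, beside 29.5% and 18.8% of all genes. Their median change was -0.49. Most lists of host cell markers were far higher in the tumour libraries. Macrophage markers summed to 28.6 to 39.2 CPM in culture, against 8137 to 11931 in tumours (17 of 17 genes called higher), and neutrophil markers to 86.4 to 102 CPM against 1709 to 5961 (12 of 12). Fibroblast markers summed to 25.5 to 54.2 CPM against 7129.8 to 9243 (13 of 13), and endothelial markers to 46.1 to 62.4 CPM against 227 to 275 (13 of 14). Of other host lists, 9 of 10 tested genes of pericytes, 10 of 11 of dendritic cells, 3 of 3 of lymphocytes, 3 of 3 of adipocytes, 2 of 4 of platelets and 1 of 6 of Schwann cells and neurons were higher. Over all genes 29.5% were called higher. Genes of the table had at least 61 reads over the 6 libraries, so those with no more than 30 cultured reads had to be higher in tumours. Many markers were such genes, as Adgre1 (6 cultured reads), S100a8 (9), Lum (1) and Pecam1 (17), so these counts are a description. The Schwann cell and neuron list summed to 70.3 to 119 CPM in culture, against 70.3 to 78.9 in tumours. In culture the defining endothelial genes Emcn, Cldn5, Erg, Sox17 and Ptprb, the fibroblast genes Dpt and Fbln1 and the neutrophil genes Retnlg and Mmp8 had 0 reads. Other genes of the same lists were expressed there, with means of 91.5 ± 7.78 CPM for Mmp9 of the neutrophil list, 39.6 ± 10.9 for Eng and 10.2 ± 2.22 for Egfl7 of the endothelial list and 31.8 ± 14.3 for Pdgfra of the fibroblast list (SD, n = 3). In sequencing of such mixed RNA, more cells of a type and more RNA per cell cannot be told apart, and the part of host RNA in the changes of the guidance genes was not tested.

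Of the 61 members, 33 were higher in the tumour libraries, 7 were lower and 21 did not pass. Over all genes, 29.5% were called higher and 18.8% lower. In either direction 48.2% of all genes were called, beside 40 members. No overlap between the groups was seen in 45 members, and in 59.8% of all genes. The median change was 1.08 over the members and 0.08 over all genes. Among 35 members with a cultured mean of at least 1 log2 CPM, 14 were higher and 6 lower, beside 17.4% and 24% of the 10558 genes at such levels. Ligands were higher in 17 of 33 cases and lower in 5, and receptors higher in 15 of 26 and lower in 2. The deposited genes all had at least 61 reads over the 6 libraries. The 12 members with no more than 30 cultured reads (Slit1, Slit2, Slit3, Robo4, Epha3, Unc5a, Unc5c, Ntn3, Plxna2, Plxnb3, Plxnc1 and Plxna4os1) were therefore in the table through their tumour reads and had to be higher there, so their values are a description. The other 49 members held 21 called higher, 7 called lower and 21 not called, and of the 12173 genes above the same limit 19.9% were higher and 21.5% lower. Of the 49, Sema3a, Sema3c, Sema3d and Sema3g had 36 to 57 cultured reads. They needed some tumour reads to reach 61, though they did not have to be higher in tumours. With each library set to a common distribution (quantile normalization) 23 members were called higher and 16 lower, beside 21.5% and 39.6% of all genes. With libraries scaled to the epithelial markers 43 were higher and 5 lower, beside 47.6% and 4.38% of all genes.

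**Figure D1:**
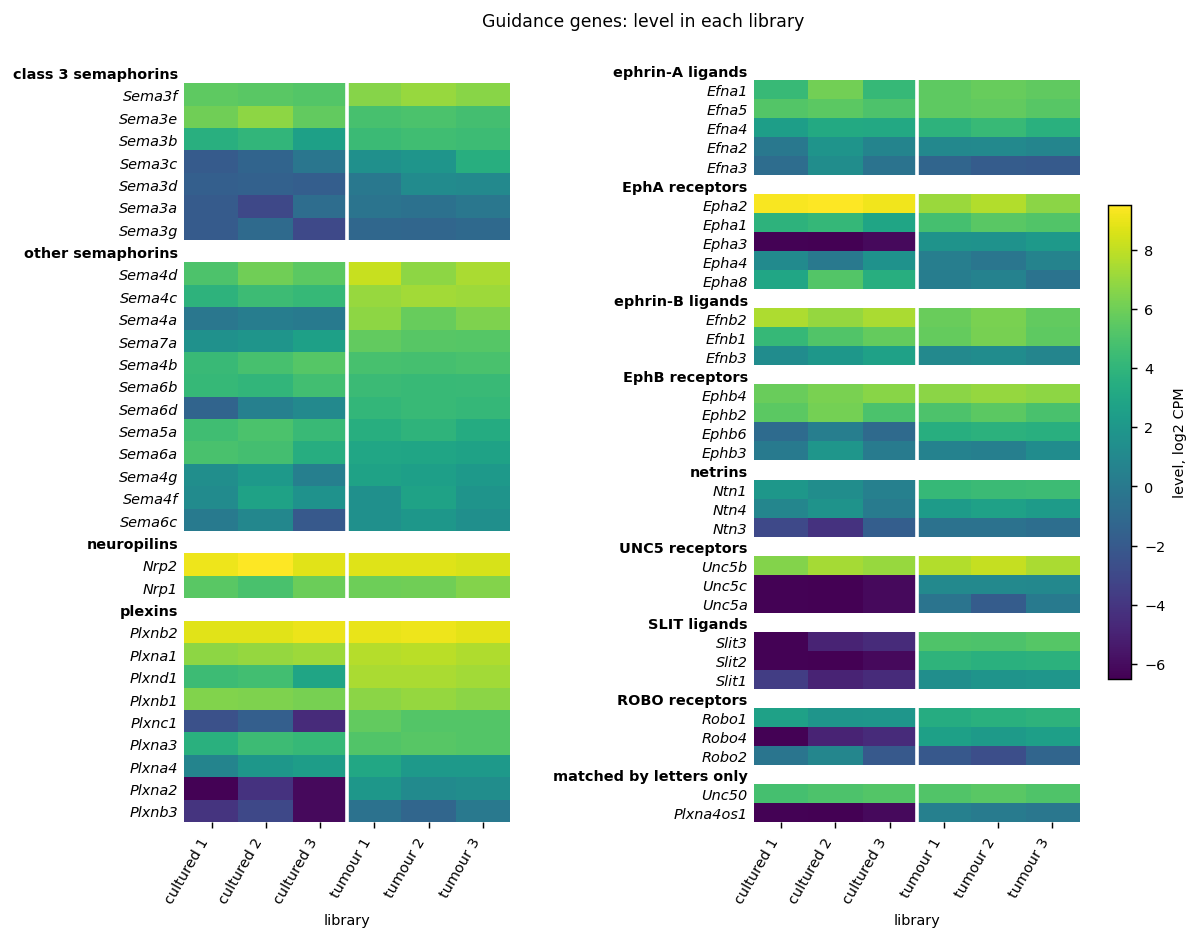
Level of each of the 61 members (rows, grouped by family) in each of the 6 libraries (columns), as deposited log2 CPM on a colour scale. The SLIT genes, Unc5a, Unc5c, Epha3, Plxna2 and Robo4 stand near the bottom of the scale in the 3 cultured libraries and higher in the 3 tumour libraries, while Plxnb2 and Nrp2 are near the top in all 6.

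**Figure D2:**
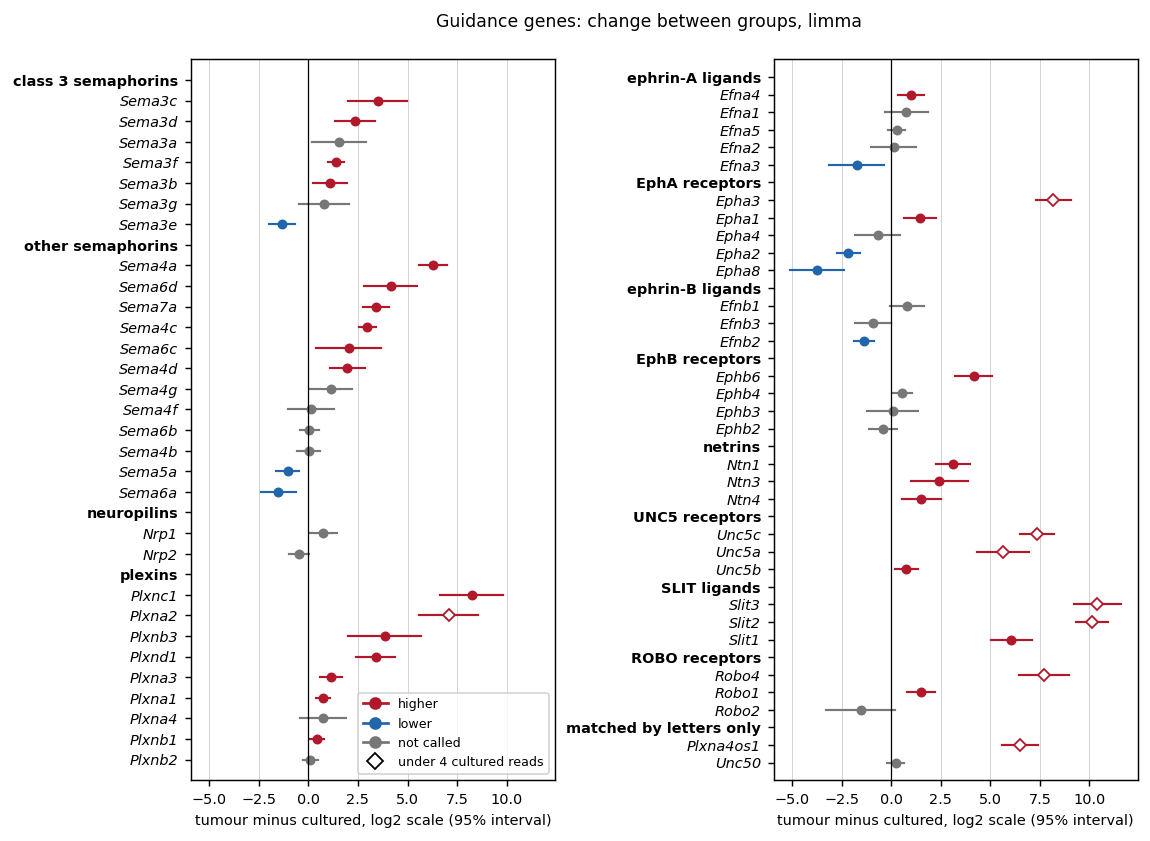
Change of each member, tumour minus cultured, on the log2 scale with limma's 95% interval. Red marks members called higher (33), blue called lower (7) and grey not called (21), and open diamonds mark members with under 4 reads over the cultured libraries, which reach 10.41 for Slit3. These fitted values depend on the 0.5 reads added to each count.

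All 3 slits, large secreted proteins that repel axons and migrating cells, were near absence in culture and present in every tumour library. Slit2 had 0 reads in the cultured libraries but 548, 522 and 526 reads in the libraries from tumours 1, 2 and 3, or 14.9, 12.8 and 13.9 CPM, at least 566-fold higher against a floor of 3 reads over the cultured group. Slit3 had 0, 1 and 1 cultured reads and 1237, 1302 and 1473 tumour reads, with a ratio of 2133 (95% counting interval 590.1 to 17620.1). Slit1 had 3, 1 and 1 cultured reads and stood at 2.63, 3.45 and 3.77 CPM in the tumour libraries. All 3 slits were in the table only through their tumour reads, as given above. The tumour values of each slit lay close together and far above every cultured value. Per kilobase of transcript, Slit3 was the most abundant of the 3 in the tumour libraries, at 6.66 ± 0.684 CPM per kb (SD, n = 3), against 1.39 ± 0.101 for Slit2 and 0.579 ± 0.104 for Slit1 (SD, n = 3).

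The ROBO receptors of the slits moved unequally. Robo1, the receptor with the widest expression, was at 6.4, 3.56 and 3.7 CPM in cultured libraries 1, 2 and 3 and at 10.5, 12.6 and 14.4 in the tumour libraries, a 2.82-fold rise (change 1.5, SE 0.3, adjusted p = 0.00453). After quantile normalization its change was 0.63 (adjusted p = 0.0897). Robo4, the family member of endothelial cells, had 0, 1 and 1 cultured reads and 5.94, 4.55 and 5.8 CPM in the tumour libraries, a ratio of 332 (95% counting interval 91.5 to 2746). Robo2 had 0.821, 1.81 and 0.23 CPM in culture, against 0.217, 0.148 and 0.396 in the tumour libraries, and the groups overlapped (change -1.54, 95% interval -3.29 to 0.21, adjusted p = 0.128). Without cultured library 3, whose Robo2 level was the lowest of the cultured ones, the change was -2.32 and was called (adjusted p = 0.0114). Endothelial markers in the same libraries summed to 275, 227 and 263 CPM in tumour libraries 1, 2 and 3 and to 46.1 to 62.4 in culture, and fibroblast markers to 7745, 7129.8 and 9243 in tumours and 25.5 to 54.2 in culture. Their part in the rise of the slits and of Robo4 was not tested.

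To show the start regions of members at both ends of this range, up to 250 bases before the start annotated by RefSeq on GRCm38.p6 are printed for Slit2, Robo4 and the Eph receptor Epha3, which had no more than 2 cultured reads each, and for Epha2 and Efnb2, abundant members that fell. GENCODE M21 begins Slit2 17 bases and Robo4 75 bases earlier than RefSeq, and those bases are left out. These 5 were chosen after their values were seen, each has a single start in the RefSeq table, and each sequence runs 5′ to 3′ on the strand of the gene with CpG pairs in capitals.
Slit2, chr5:47982905-47983137, plus strand: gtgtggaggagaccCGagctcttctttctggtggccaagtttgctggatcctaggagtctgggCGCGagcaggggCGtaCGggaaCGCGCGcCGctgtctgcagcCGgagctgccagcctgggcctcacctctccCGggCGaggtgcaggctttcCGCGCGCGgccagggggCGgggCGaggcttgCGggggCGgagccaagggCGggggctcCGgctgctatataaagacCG
Epha3, chr16:63864176-63864425, minus strand: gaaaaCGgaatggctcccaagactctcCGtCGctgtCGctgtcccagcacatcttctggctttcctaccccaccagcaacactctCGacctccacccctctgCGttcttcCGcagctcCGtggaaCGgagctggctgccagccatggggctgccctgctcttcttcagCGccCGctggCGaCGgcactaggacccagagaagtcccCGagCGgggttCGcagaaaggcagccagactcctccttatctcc
Robo4, chr9:37401722-37401896, plus strand: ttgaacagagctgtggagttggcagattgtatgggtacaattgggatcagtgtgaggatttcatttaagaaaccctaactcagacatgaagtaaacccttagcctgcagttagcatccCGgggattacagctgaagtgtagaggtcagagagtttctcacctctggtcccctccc
Epha2, chr4:141300971-141301220, plus strand: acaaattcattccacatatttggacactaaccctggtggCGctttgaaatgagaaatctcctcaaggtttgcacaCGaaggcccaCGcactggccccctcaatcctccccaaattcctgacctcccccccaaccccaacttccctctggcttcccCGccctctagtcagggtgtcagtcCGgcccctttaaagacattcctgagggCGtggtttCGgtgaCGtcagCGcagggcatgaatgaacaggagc
Efnb2, chr8:8661243-8661492, minus strand: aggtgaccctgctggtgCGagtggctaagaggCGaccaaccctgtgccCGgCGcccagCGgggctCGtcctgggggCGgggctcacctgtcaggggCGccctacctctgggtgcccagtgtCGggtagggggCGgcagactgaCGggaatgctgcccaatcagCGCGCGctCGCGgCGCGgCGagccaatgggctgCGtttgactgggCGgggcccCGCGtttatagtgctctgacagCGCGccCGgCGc
Over the full 250 bases before the RefSeq start, there are 27 CpG pairs for Efnb2, 25 for Slit2, 16 for Epha3, 9 for Epha2 and 2 for Robo4, and the median over all 32851 windows of the table is 6. Slit2 and Epha3, at 0 reads in culture, and Efnb2, which was expressed there, all had counts above that median. Among the 41 members with a single start, the median was 23 in the 7 with under 4 cultured reads (range 2 to 35) and 16 in the other 34 (range 2 to 46). The letters TATAAA, searched on both strands and found in 12.4% of all windows, are present in those of Slit2 and Efnb2. GGGCGG, found in 32.7% of all windows, is present in those of Slit2, Epha2 and Efnb2, and TGANTCA, found in 6.75%, in none of the 5.

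Of the netrins, laminin-related secreted proteins, Ntn1 and Ntn4 rose and Ntn3 was in the table only through its tumour reads, and after quantile normalization the change turned to -1.92 for Ntn3 and -0.21 for Ntn4. Ntn1, the founding netrin of axon guidance, was at 3.82, 2.56 and 1.38 CPM in cultured libraries 1, 2 and 3 and at 18.8, 21.5 and 22.2 in the tumour libraries, 8.69-fold higher (change 3.12, SE 0.37, adjusted p = 0.000314). Ntn4, a netrin of basement membranes, was at 1.76, 3.31 and 1.09 CPM in culture, and the tumour libraries had 4.88, 6.32 and 4.88 (change 1.51, adjusted p = 0.0203). The groups did not overlap for either gene. The call for Ntn4 was lost without cultured library 1 (adjusted p = 0.0535) and without tumour library 1, 2 or 3 (adjusted p = 0.0579, 0.077 and 0.0596). Ntn3 was below 1 CPM in all 6 libraries, at 0.117, 0.0442 and 0.287 in culture, against 0.705, 0.714 and 0.607 in tumours.

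Of the UNC5 netrin receptors, Unc5b carried nearly all transcripts in both groups. It stood at 92.2, 166 and 132 CPM in the cultured libraries and at 204, 271 and 180.3 in those from tumours, a 1.7-fold rise in which every tumour library exceeded every cultured one (change 0.77, SE 0.25, adjusted p = 0.0373). This call was lost without cultured library 1 (change 0.54, adjusted p = 0.0965), without each tumour library in turn (adjusted p = 0.0825, 0.125 and 0.0529 for libraries 1, 2 and 3) and with libraries centred on their median (change 0.54, adjusted p = 0.11). It was also lost with a common prior variance for all genes. Unc5c and Unc5a had 0 reads in culture. From tumour libraries 1, 2 and 3, Unc5c had 76, 81 and 73 reads, at least 81.5-fold higher, and Unc5a had 29, 11 and 38, at least 27.6-fold higher. After quantile normalization the change of Unc5a was 0.74 and did not pass (adjusted p = 0.237). Per kilobase, Unc5b was at 37.2 ± 8.05 CPM per kb in the tumour libraries and Unc5c at 0.207 ± 0.00703 (SD, n = 3). The other netrin receptors lay outside the rule. Neo1, the neogenin receptor, fell (change -1.13, from a mean of 8.01 to 6.88 log2 CPM, adjusted p = 0.00383), and Dcc was not among the genes tested.

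Class 3 semaphorins, the secreted ones, were higher in 4 of 7 cases and lower in 1. Sema3f, a ligand of neuropilin 2, was at 45.5, 42.7 and 36.4 CPM in cultured libraries 1, 2 and 3 and at 97.2, 129 and 101 in the tumour libraries (change 1.39, SE 0.17, adjusted p = 0.000359). Sema3e, which binds plexin D1 without a neuropilin, fell from 64.5, 110.5 and 51 to 29.3, 31.4 and 25.8 CPM (change -1.31, SE 0.28, adjusted p = 0.00616). The groups did not overlap for either gene. In culture the mean level per kilobase was 11 ± 4.54 CPM per kb for Sema3e and 12.2 ± 1.37 for Sema3f, within the spread of the libraries, while in the tumour libraries it was 4.2 ± 0.41 and 32.2 ± 5.17 (SD, n = 3).

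Sema3c, a ligand of both neuropilins, was below 1 CPM in culture (0.258, 0.375 and 0.833) and at 2.93, 3.62 and 11.7 CPM in tumour libraries 1, 2 and 3 (change 3.49, SE 0.64, adjusted p = 0.00288). Tumour library 3 stood well above the other 2 tumour libraries. Fibroblast markers were also highest in tumour library 3, with sums of 7745, 7129.8 and 9243 CPM. Macrophage markers (11358, 8137 and 11931 CPM) and those of adipocytes, lymphocytes and platelets were highest there too. The part of any of these cell types in the Sema3c level was not tested. Sema3d was at 0.305, 0.331 and 0.287 CPM in culture, against 0.922, 2.29 and 2.06 in the tumour libraries (change 2.36, adjusted p = 0.00282), but after quantile normalization its change was -0.61 (adjusted p = 0.404). Quantile normalization also ended the call for Sema3c (change 1.35, adjusted p = 0.144). Sema3b was at 12.2, 16.6 and 5.94 CPM in culture, and the tumour libraries had 21.3, 24.4 and 21.8 (change 1.08, adjusted p = 0.0413). Its call was lost without cultured library 1 (adjusted p = 0.0667), without tumour library 1, 2 or 3 (adjusted p = 0.0956, 0.12 and 0.104) and with libraries centred on their median (adjusted p = 0.074). The call for Sema3b was also lost after quantile normalization (adjusted p = 0.0928) and with a common prior variance for all genes (adjusted p = 0.0584). Sema3a and Sema3g were below 1 CPM in all 6 libraries and did not pass. Without cultured library 3, Sema3a had a change of 2.13 and passed (adjusted p = 0.00724), and after quantile normalization it was lower in the tumour libraries (-2.26, adjusted p = 0.00739).

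The neuropilins, co-receptors of these ligands, did not pass the test. Nrp2 was at 539.7, 731 and 437 CPM in cultured libraries 1, 2 and 3 and at 417, 427 and 365 in the tumour libraries (change -0.47, 95% interval -0.97 to 0.03, adjusted p = 0.11). Nrp1 was at 42.7, 29.6 and 61.1 CPM in the cultured libraries and at 61.7, 64.8 and 93.7 in those from tumours (change 0.76, 95% interval 0.09 to 1.43, adjusted p = 0.0626). Every tumour library was below every cultured one for Nrp2 and above every one for Nrp1, the latter by a narrow margin to cultured library 3. Without cultured library 3 both passed, Nrp2 with a change of -0.64 (adjusted p = 0.0161) and Nrp1 with 1.02 (adjusted p = 0.0103). Both also passed with library weights (changes -0.57 and 0.98). The direction of Nrp2 depended on the scaling, with a change of 0.14 (adjusted p = 0.597) with libraries scaled to the epithelial markers and -0.69 (adjusted p = 0.0263) with libraries centred on their median. The epithelial scaling gave Nrp1 a change of 1.37 (adjusted p = 0.0135). Per kilobase, Nrp2 was the more abundant neuropilin in all 6 libraries. It made up 87.1, 93 and 79.3% of the family sum in cultured libraries 1, 2 and 3 and 78.3, 77.9 and 67.6% in the tumour libraries.

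Of the membrane-bound semaphorins, 6 of 12 were higher and 2 lower. Sema4a, a semaphorin of immune cells, was near 1 CPM in culture (0.868, 1.19 and 1.06) and at 112, 54.6 and 85.8 CPM in tumour libraries 1, 2 and 3 (change 6.27, SE 0.31, adjusted p = 2.74e-06). Sema4d, known as CD100 and a ligand of plexin B1, was at 32.2, 64.2 and 44.9 CPM in culture, against 285, 110.5 and 175 in the tumour libraries (change 1.96, SE 0.38, adjusted p = 0.00364). No tumour library overlapped with culture for either gene. Both were highest in tumour library 1 and lowest in tumour library 2, and the same order held for the summed neutrophil markers, at 5961, 1709 and 3189 CPM. It also held for the dendritic cell list (7493, 5316 and 6818 CPM) and the endothelial list (275, 227 and 263 CPM). Macrophage markers summed to 11358, 8137 and 11931 CPM in tumour libraries 1, 2 and 3. The part of any of these cell types in the semaphorin levels was not tested.

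Sema4c, a ligand of plexin B2, showed little spread within the groups. It was at 14.5, 22.2 and 18.5 CPM in culture, and the tumour libraries had 129.9, 155 and 144, 7.85-fold higher (change 2.97, SE 0.19, adjusted p = 8.85e-06). Sema6d rose from 0.375, 1.35 and 2.01 to 17.4, 19.3 and 17.7 CPM (change 4.15, SE 0.57, adjusted p = 0.000663). Its cultured libraries differed from each other more than its tumour libraries did. Sema7a, a lipid-anchored semaphorin that binds plexin C1 and integrins, was at 2.98, 3.62 and 5.97 CPM in the cultured libraries and at 50, 40.1 and 38.9 in those from tumours (change 3.41, SE 0.29, adjusted p = 4.40e-05). Sema6c, at 1.01, 1.86 and 0.23 CPM in culture against 2.85, 3.86 and 2.8 in tumours, had a change of 2.02 (adjusted p = 0.0452). Its call was lost without cultured library 1 (adjusted p = 0.0729), without each tumour library (adjusted p = 0.098, 0.129 and 0.099) and with libraries centred on their median (adjusted p = 0.0576), and after quantile normalization its change was -0.27. The call for Sema6c was also lost with a common prior variance for all genes (adjusted p = 0.0592).

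The semaphorins that fell were expressed in culture. Sema6a was at 30.5, 26.4 and 11.2 CPM in cultured libraries 1, 2 and 3 and at 7.78, 7.41 and 6.67 in the tumour libraries (change -1.51, SE 0.38, adjusted p = 0.0124). Sema5a was at 24.3, 31.4 and 20.1 CPM in culture, against 11.4, 15.1 and 10 in the tumour libraries (change -1.05, adjusted p = 0.00991). Neither gene's groups overlapped, although cultured library 3 was near the tumour range for Sema6a. With libraries scaled to the epithelial markers the change of Sema5a was -0.44 and did not pass (adjusted p = 0.128). Sema4b at 28.2, 27.4 and 29.6 CPM and Sema6b at 21.4, 19.4 and 19.9 CPM in the tumour libraries overlapped with culture, at 19.9, 28.3 and 38.8 CPM for Sema4b and 18.5, 16.3 and 25.1 for Sema6b, with 95% intervals of the change of -0.56 to 0.6 and -0.45 to 0.53. Sema4f (-1.01 to 1.27) and Sema4g (0.1 to 2.18) did not pass either. Without cultured library 2 the change of Sema4g was 1.53 and passed (adjusted p = 0.0188).

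Plexins, the receptors of semaphorins, were called higher in 7 of 9 cases and lower in 0, but 3 of the 7 (Plxna2, Plxnb3 and Plxnc1) had to be higher to be in the table. After quantile normalization Plxnb3 turned to -0.66, Plxna4 to -0.75 and Plxnb2 to -0.08, none of them called, and Plxnb2 was at -0.12 with libraries centred on their median. Plxnc1, the receptor of semaphorin 7A and a plexin of myeloid cells, was covered by 7, 14 and 1 reads in culture, against 1851, 1498 and 1398 in the libraries from tumours, which is 50.2, 36.9 and 36.9 CPM. Plxnd1, a receptor of vessels that binds semaphorin 3E, was at 22.6, 24.7 and 7.64 CPM in culture, and the tumour libraries had 177, 177 and 156 (change 3.39, SE 0.42, adjusted p = 0.000359). Cultured library 3 was the lowest for Plxnc1 and for Plxnd1, and all tumour libraries lay far above culture. Plxna2 had 0, 2 and 0 cultured reads and 3.96, 2.24 and 2.56 CPM in the tumour libraries, a ratio of 178 (95% counting interval 48.8 to 1472). Plxnb3 was below 1 CPM in all 6 libraries, at 0.0469, 0.11 and 0 in culture against 0.705, 0.418 and 0.976 in tumours.

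The most abundant plexin per kilobase had the smallest change of the family. Plxnb2, a plexin of epithelia, was at 445, 443 and 527 CPM in the cultured libraries and at 502, 551 and 467 in those from tumours (change 0.1, 95% interval -0.27 to 0.48, adjusted p = 0.62), and the groups overlapped. Plxna1 was at 112, 126 and 142 CPM in culture, against 210.5, 229 and 195 in the tumour libraries (change 0.74, SE 0.15, adjusted p = 0.00468). Plxna3 rose by 1.13 (adjusted p = 0.00623) and Plxnb1 by 0.44 (adjusted p = 0.0368). The call for Plxnb1 was lost without tumour library 1, 2 or 3 (adjusted p = 0.102, 0.12 and 0.0964) and with libraries centred on their median (change 0.21, adjusted p = 0.238). It was also lost with library weights and with a common prior variance for all genes. Plxna4, at 1.64, 3.95 and 5.2 CPM in culture against 8.68, 4.28 and 4.25 in tumours, overlapped between the groups (95% interval -0.42 to 1.9). Its antisense neighbour Plxna4os1 had 0 reads in culture, against 50, 44 and 34 in tumour libraries 1, 2 and 3, at least 45.4-fold higher. Its exons share 0% of their bases with another gene, but they lie inside the span of Plxna4 on the opposite strand. The sources used here do not state whether counting used the strand, so reads of Plxna4os1 and unspliced reads of Plxna4 at that place cannot be told apart. Unc50, the other gene matched by its letters, was at 27, 32.2 and 37 CPM in culture against 35.6, 41.9 and 34.3 in tumours and did not pass (95% interval -0.2 to 0.65).

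EphA receptors, tyrosine kinases that bind mainly the lipid-anchored ephrin-A proteins, included the strongest falls of the group. Epha2, an EphA receptor of epithelia and carcinomas, had the highest level per kilobase of all 61 members in culture, at 165 ± 17.8 CPM per kb (SD, n = 3). It was at 646, 713 and 574 CPM in cultured libraries 1, 2 and 3 and at 137, 204 and 106 in the tumour libraries, 4.47-fold lower (change -2.16, SE 0.25, adjusted p = 0.000239). Epha8 fell from 7.79, 36.9 and 11.5 to 1.22, 1.48 and 0.739 CPM, with a wide spread in culture (change -3.74, SE 0.58, adjusted p = 0.00128). In both cases every tumour library lay below every cultured one. Without cultured library 2, the highest for Epha8, its change was -3.09 (adjusted p = 0.00119).

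Epha1, an EphA receptor of epithelia that rose, was at 14.3, 18.2 and 7.52 CPM in culture, and the tumour libraries had 27.5, 43.2 and 35 (change 1.47, SE 0.34, adjusted p = 0.00963). Epha3 had 0 cultured reads, while tumour libraries 1, 2 and 3 had 122, 125 and 164, at least 146-fold higher. Epha4, at 2.18, 0.972 and 3.1 CPM in culture against 1.25, 0.837 and 1.53 in tumours, did not pass (95% interval -1.81 to 0.46). Without cultured library 2 its change was -1.15 and passed narrowly (adjusted p = 0.0488). The sum of the EphA receptors per kilobase was 172, 196 and 152 CPM per kb in cultured libraries 1, 2 and 3 and 44.4, 66.3 and 38.9 in the tumour libraries, and Epha2 made up 96.3, 93.1 and 96.6% of it in culture against 78.8, 78.6 and 69.6% in tumours.

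Of the ephrin-A ligands, 1 of 5 was higher and 1 lower. Efna1, the main ligand of EphA2, was at 19.7, 67.7 and 18.6 CPM in the cultured libraries and at 45.5, 53.8 and 48.7 in those from tumours, and cultured library 2 lay above all tumour libraries (change 0.75, 95% interval -0.33 to 1.83, adjusted p = 0.217). Without that library the change was 1.36 and passed (adjusted p = 0.000776). Efna5 was at 37.3, 43.9 and 32.2 CPM in culture against 46.4, 50.3 and 40 in tumours with overlapping groups (95% interval -0.14 to 0.69). Efna4 was at 5.56, 9.25 and 8.99 CPM in culture, against 14.6, 19.3 and 12.8 in the tumour libraries (change 0.99, adjusted p = 0.0223), a call lost without tumour library 1 (adjusted p = 0.0684) or 2 (0.0913), after centring on the median (0.0567) and after quantile normalization (0.297). Efna3 fell from 0.563, 2.52 and 0.746 to 0.407, 0.271 and 0.237 CPM (change -1.74, adjusted p = 0.0437). Without cultured library 2, which held most of its cultured reads, the change was -1.09 and did not pass (adjusted p = 0.0734), nor did it without tumour library 1, 2 or 3 (0.0694, 0.113 and 0.131) or scaled to the epithelial markers (0.12). The call for Efna3 was also lost with voom's precision weights. Efna2 did not pass (95% interval -1.0 to 1.24), and after quantile normalization it was lower in the tumour libraries (-2.19).

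Ephrin-B ligands, which span the membrane, and EphB receptors held 1 fall and 1 rise. Efnb2, the ephrin that marks arterial endothelium and that binds EphB4, was at 181, 123 and 174 CPM in cultured libraries 1, 2 and 3 and at 58.1, 76.1 and 51 in the tumour libraries, 2.58-fold lower without overlap (change -1.37, SE 0.22, adjusted p = 0.0014). Efnb1 was at 18.6, 36.4 and 52.2 CPM in culture against 53.2, 74.7 and 46.4 in tumours and did not pass (change 0.79, 95% interval -0.08 to 1.66, adjusted p = 0.116). Without cultured library 3, the highest of the cultured ones, its change was 1.13 and passed (adjusted p = 0.022). Per kilobase, Efnb2 made up 85.4, 67.4 and 66.8% of the ephrin-B sum in cultured libraries 1, 2 and 3 and 41.7, 40.1 and 41.8% in the tumour libraries, where Efnb1 had the larger share. Efnb3 was at 2.39, 3.84 and 6.2 CPM in culture against 2.03, 2.41 and 1.74 in tumours (95% interval -1.82 to 0.01) and passed without cultured library 1 (change -1.25, adjusted p = 0.0271).

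Ephb6, an Eph receptor without kinase activity, rose from 0.516, 1.24 and 0.488 CPM in culture to 11.5, 13.6 and 12 in the tumour libraries, 17.8-fold higher with no overlap (change 4.16, SE 0.4, adjusted p = 8.74e-05). Ephb4, the receptor of ephrin B2 and the most abundant EphB receptor per kilobase in all 6 libraries, was at 57.6, 76.5 and 101 CPM in culture, and the tumour libraries had 104, 124 and 108 (change 0.55, 95% interval 0.05 to 1.06, adjusted p = 0.0692). The tumour libraries lay just above cultured library 3, and without that library the change was 0.75 and passed (adjusted p = 0.0073). Ephb2 was at 45, 72.5 and 32 CPM in culture, against 32.3, 44.4 and 30.5 in tumours, and Ephb3 at 1.06, 3.67 and 1.09 against 1.52, 1.3 and 2.45, with overlapping groups and 95% intervals of -1.14 to 0.3 and -1.2 to 1.33.

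Shares within a family do not depend on the total by which a library is divided. Among plexins, Plxnb2 made up 71.1, 68.7 and 74% of the sum per kilobase in cultured libraries 1, 2 and 3 and 50.9, 52.5 and 51.5% in the tumour libraries. The share of Plxnd1 went from 3.4, 3.6 and 1.01% to 16.9, 15.9 and 16.2%, and that of Plxnc1 from 0.0234, 0.0427 and 0.00359% to 4.53, 3.13 and 3.62%. Sema3e made up 35.4, 47.6 and 36.8% of the class 3 semaphorins in culture, against 10.7, 8.95 and 8.82% in tumours, and Sema3f 50.4, 37.2 and 53% against 71.5, 74.6 and 69.8%. Robo4 made up 0, 0.651 and 1.11% of the ROBO sum in culture, against 45.8, 35.3 and 37.6% in tumours. The membrane-bound semaphorins summed to 30.2, 43 and 38.4 CPM per kb in culture, against 168, 115 and 134 in tumours, and the neuropilins to 92.2, 117 and 81.9 against 79.1, 81.6 and 80.3.

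**Figure D3:**
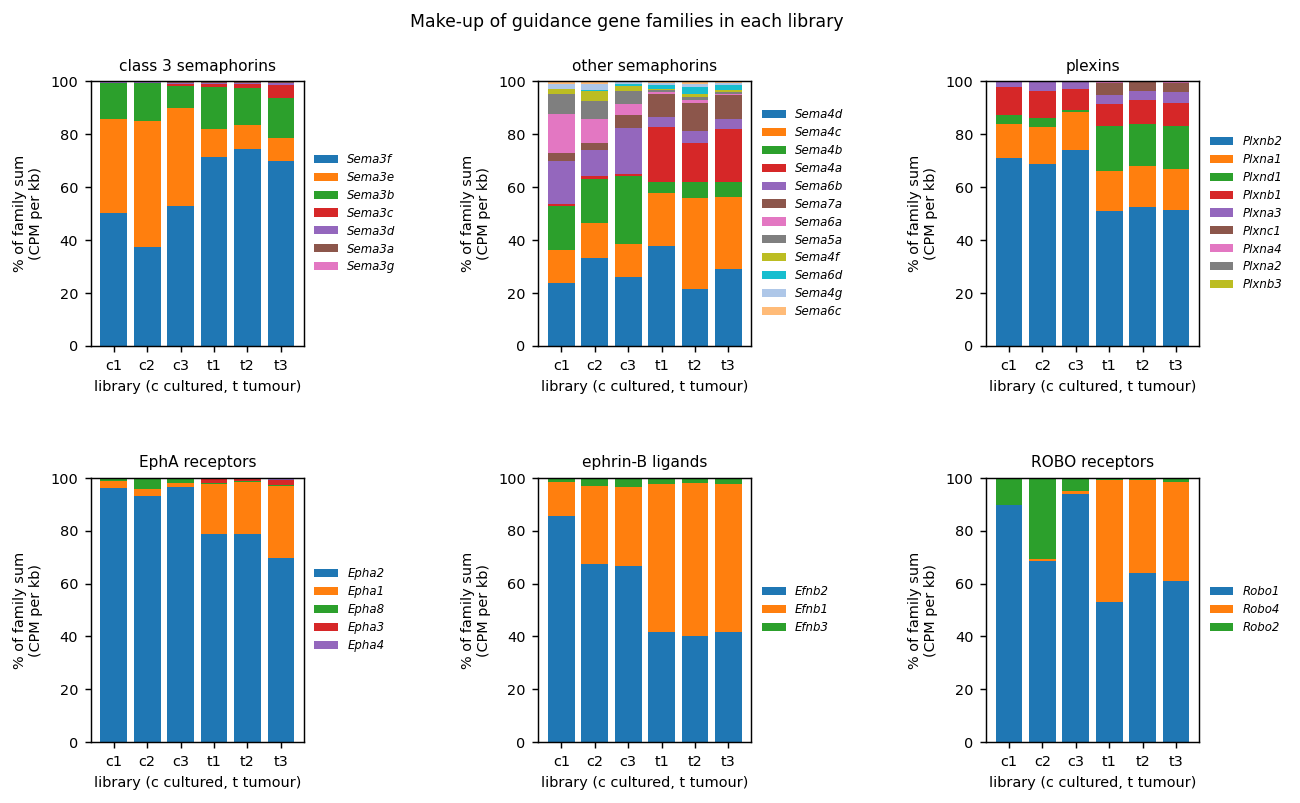
Share of each gene in the sum of its family, in percent of CPM per kb, for 6 families in each of the 6 libraries (c cultured, t tumour), with 1 bar per library. Plxnb2, Epha2 and Efnb2 take a smaller share in the 3 tumour libraries than in the 3 cultured ones, and Plxnd1, Epha1, Efnb1 and Robo4 a larger one.

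Ligands were set beside their receptors using 83 known pairs within these families, of which 67 had both genes tested. The pairs do not cover all members, as Sema4b, Sema4f, Sema6c, Ntn3, Epha8, Ephb6 and Robo4 are in none of them. Both partners were called higher in 18 pairs, 9 of which hold a gene that had to be higher to be in the table. They were both lower in 1 (Efna3 and Epha2), and the ligand was higher and the receptor lower in 1 (Efna4 and Epha2). In 4 pairs the ligand was lower and the receptor higher, Sema3e and Plxnd1 among them. In the others, Sema5a with Plxnb3, Sema6a with Plxna2 and Efna3 with Epha3, the receptor had to be higher to be in the table. Many pairs share a gene, so the counts are not independent. Both partners had a mean of at least 1 CPM per kb in 17 pairs in culture and in 29 in the tumour libraries, 16 of them in both. These counts were 17 and 23 when all annotated exon bases were taken as the length of a gene, a setting chosen after seeing the data, and the tumour count was 26 without tumour library 3.

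The pair of Sema7a and its receptor Plxnc1 went from 1.27 ± 0.478 and 0.0229 ± 0.0192 CPM per kb in culture to 13 ± 1.85 and 5.66 ± 1.05 in the tumour libraries (SD, n = 3). Slit3 and Robo1 went from 0.00324 ± 0.00288 and 0.602 ± 0.212 to 6.66 ± 0.684 and 1.65 ± 0.255, and Ntn1 and Unc5b from 0.441 ± 0.208 and 22.1 ± 6.28 to 3.55 ± 0.299 and 37.2 ± 8.05 CPM per kb (SD, n = 3). For Sema4c and Plxnb2, the ligand went from 4.73 ± 0.989 to 36.7 ± 3.23 CPM per kb while the receptor was at 72.6 ± 7.38 and 78 ± 6.5 (SD, n = 3). In the pair of Sema3e and Plxnd1 the partners moved in opposite directions, from 11 ± 4.54 and 2.65 ± 1.35 in culture to 4.2 ± 0.41 and 24.6 ± 1.73 CPM per kb in the tumour libraries (SD, n = 3). Efna1 and Epha2 stood at 21.7 ± 17.2 and 165 ± 17.8 CPM per kb in culture and at 30.2 ± 2.59 and 38.1 ± 12.8 in the tumour libraries (SD, n = 3), so the large excess of receptor over ligand in culture shrank to a difference smaller than the SD of Epha2. Efnb2 and Ephb4 went from 33.2 ± 6.64 and 18 ± 4.98 to 12.9 ± 2.7 and 25.9 ± 2.5 CPM per kb (SD, n = 3), with the ligand above the receptor in culture and below it in the tumour libraries. Whether the partners of a pair were expressed by the same cells was not tested.

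**Figure D4:**
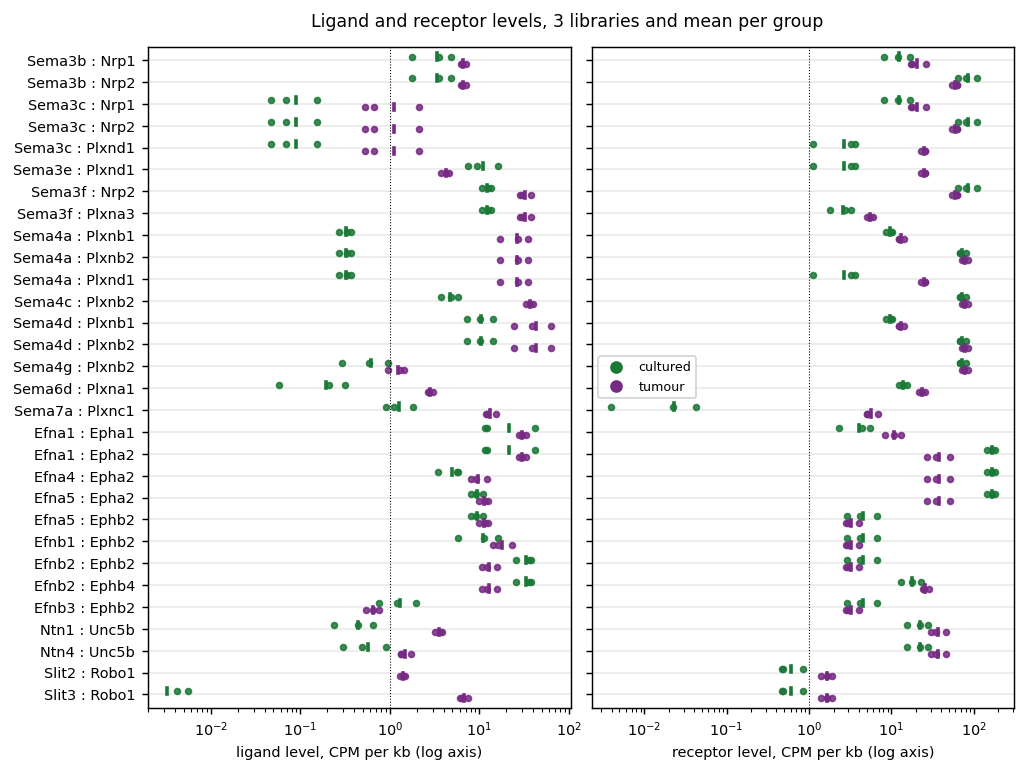
Mean level (short bars) and the 3 libraries (points) of the ligand, left, and the receptor, right, for pairs with both partners at 1 CPM per kb or more in either group, on log axes in CPM per kb, with the dotted line at 1. Libraries at 0 reads cannot be drawn on a log axis, as for Slit2 in culture. Sema4a, Sema7a, Plxnc1 and Slit3 are separated widely between the groups, and Plxnb2 overlaps.

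Genes that act beside these families were read from lists, and their counts and medians stand beside 29.5% called higher, 18.8% called lower and a median change of 0.08 for all genes. Listed genes with no more than 30 cultured reads had to be higher to be in the table, so their values are a description. They are Cd72, Mical1, Kdr, Dpysl3, Mst1r, Flt4, Chl1, Chn2, Srgap1, Evl, Cxcr4, Cxcl12, Flrt2, Draxin, Dpp6 and Lrrc4. Of 33 tested genes of plexin and neuropilin signalling, 15 (45.5%) were higher and 6 (18.2%) lower, with a median change of 0.17. Cd72, a receptor of semaphorin 4D on B cells, had a mean of 0.00782 ± 0.0135 CPM in culture, from 1 read, and 48.9 ± 9.13 in tumours (SD, n = 3). Mical1, an actin oxidase downstream of plexins, went from 0.052 ± 0.0707 to 34 ± 10.1 CPM, and Kdr, a VEGF receptor of endothelium, from 0.00736 ± 0.0128 to 13.9 ± 3.18 CPM (SD, n = 3). These were the largest changes of that list. Of 29 genes of Eph and ephrin signalling, 11 (37.9%) were higher and 5 (17.2%) lower, with a median change of 0.13. Chn2, a GTPase-activating protein for Rac, had 1 cultured read and stood at 0.781 ± 0.056 CPM in tumours (SD, n = 3), while the adaptor Sh2d3c had a change of 3.89 and the transcription factor Stat3 one of 2.13.

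Of 15 genes of slit and ROBO signalling, 5 (33.3%) were higher and 2 (13.3%) lower, with a median change of 0.06, shares near those of all genes. Cxcr4, a chemokine receptor of leukocytes, went from 0.0629 ± 0.0327 CPM in culture to 212 ± 61.8 in tumours, and Cxcl12, its ligand and a product of stromal cells, from 0 reads to 15.5 ± 6.72 CPM (SD, n = 3). Evl, an actin regulator, went from 0.0147 ± 0.0255 to 28.9 ± 4.28 CPM (SD, n = 3). Of 6 genes of the FLRT and latrophilin families, 2 were higher and 2 lower. Flrt2, a ligand of the UNC5 receptors, had 8 cultured reads and a change of 6.34. Flrt3 had a change of 1.01 (adjusted p = 0.0261) and Flrt1 one of -3.28 (adjusted p = 0.0495). Of 6 tested genes on the list for DCC and neogenin, 3 were higher and 1 lower. Dpp6, whose link to these receptors was not tested, had 0 cultured reads and 0.633 ± 0.266 CPM in tumours (SD, n = 3). Draxin, a netrin antagonist, had a change of 2.35 and Rgma, a neogenin ligand, one of 1.48. Both tested genes of the netrin-G list were higher, Lrrc4 by 4.48 and Ntng2 by 2.95. Host markers rose in the same libraries as given above, and their part in these changes was not tested.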

How the data were processed

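The authors deposited 1 table of log2 values per gene. Per the submitters' processing notes, the tools were HISAT, HTSeq and limma (versions not named) and the build was mm10. The deposited log2 CPM values have voom's form, with 0.5 reads added and library totals scaled by factors that multiply to 1, as TMM factors do. Solving this form gave whole reads (tolerance 0.01) in 100% of values, from which CPM were computed. Groups were compared with limma 3.58.1 (R 4.3.3) on all deposited values, letting the prior variance follow the mean level, with two-sided p-values adjusted after Benjamini and Hochberg at 0.05, tested on simulated data. Count models were not used, since the unit is log2. Levels per kb use the longest transcript of GENCODE M21's basic set, and all 61 symbols matched. Exon bases shared with other genes were at most 14.1% (Efna3). Intervals of a ratio, named counting intervals, and floors cover counting error only. Intervals of a change are those of limma and rest on the spread from library to library. Values by library were given, per family, for up to 3 called members with the largest change, up to 2 that fell and the 2 with the highest mean, with others added. Members, pairs and lists were chosen with earlier results of these data known. Promoter windows are from RefSeq (52 of 61 members), and starts can differ from GENCODE's.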

Additional observations from a re-analysis of the deposited data

How the results depend on the processing

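There were 14 alternatives. Of 33 members called higher, 21 kept their call in each alternative that tested them, and so did 5 of 7 called lower, Sema3e, Sema6a, Epha2, Epha8 and Efnb2. The 21 include Slit1, Slit2, Slit3, Robo4, Epha3, Unc5c, Plxna2, Plxnc1 and Plxna4os1. These genes had to be higher to be in the table, so their kept calls are a description. Plxna4os1 was tested in 13 alternatives. Counts over the leave-one-out fits were 27 to 37 members higher and 6 to 9 lower. The higher counts include the members that had to be higher to be in the table. Over the same fits, 23.7% to 33.2% of all genes were called higher. Quantile normalization called 16 members lower, against 39.6% of all genes, and reversed Sema3a (-2.26), Sema3d (-0.61), Sema3g (-3.24), Sema4f (-1.54), Sema6c (-0.27), Plxnb3 (-0.66), Efna2 (-2.19), Ephb3 (-2.31), Ntn3 (-1.92) and Ntn4 (-0.21). It gave changes of the other sign, called in neither fit, for Plxna4 (-0.75), Sema4g (-0.47), Sema6b (-0.28) and Sema4b (-0.18), and for Plxnb2 as given above. Scaling to the epithelial markers moved the median change of all genes to 0.69, with 47.6% called higher and 4.38% lower, against -0.14 after centring on the median and -0.32 after quantile normalization. The share of all genes called lower was 10.9% to 23.7% over the leave-one-out fits, 11.2% without tumour library 1 and 10.9% without tumour library 3. The causes were not tested. No paired analysis was possible because the numbers in the labels are not shared between the groups. Precision is limited by 3 libraries a group and, for members under 1 CPM, by depth.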
